A study of Mus musculus with 14 samples.

Results

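Expression of 37 genes of monocytes, macrophages and related phagocytes was examined in mouse kidneys before and after renal ischemia/reperfusion injury (IRI), in which blood flow to the kidney is stopped and then restored. The genes were chosen by symbol, as known receptors, enzymes and regulators of these cells, with earlier results of these data known. Shares of all genes given beside their counts are therefore a description and not a test. All 37 were among the 24411 genes of the deposited tables, and all 37 were among the 14300 genes that passed the expression filter. The kidneys came from male C57/B6 mice of 8 weeks and were collected at day 0 (4 libraries), day 1 (5 libraries) and day 3 (5 libraries). No genetic change or drug is named for any of these mice, and neither the labels nor the text used here says whether the day 0 mice had a sham operation. Each library holds the RNA of all cells of a kidney sample together, so more cells of a type and more RNA per cell cannot be told apart. The labels do not say that each library is a separate mouse, so the tests measure the spread between these libraries.

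Kidney macrophages are of mixed origin. Resident cells are seeded early in life, sit along the tubules and vessels, and are known for the surface receptors Adgre1 (F4/80) and Cx3cr1 and for the complement subunits C1qa, C1qb and C1qc. Monocytes are drawn from the blood into injured tissue by chemokines that bind Ccr2, carry Ly6c2 on their surface, and use the C-type lectins Clec4d and Clec4e to sense microbes and dead cells. Both depend on the growth factor receptor Csf1r and on the transcription factor PU.1, the product of Spi1, and both can mature into cells that engulf debris. Monocytes share many of these genes with neutrophils, the other phagocyte that enters the kidney early after IRI.

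RefSeq promoter sequences (GRCm38.p6, from 250 bases before to 50 bases after the start of transcription) were found for 29 of the 37 genes, with 36 start sites. PU.1 is known to bind sites built around GAGGAA, so these letters were searched for on both strands. They were present in 22 of the 36 promoters (61.1%), compared with 28.3% of the 32851 promoters of the same length in the whole table. The longer letters GAGGAAGT, each of which also counts as a match of the shorter ones, were present in 5 of the 36 (13.9%) and in 3.20% of all promoters. By gene they were present in 4 of the 29. Some genes have start sites a few bases apart, so the same letters can count more than once. A match shows the letters only. The 150 bases before the start are shown for 8 of the 29 genes, chosen mostly as examples of a match, namely the recruited gene Clec4e, the resident genes C1qb and Cx3cr1, the integrin Itgam, the receptors Trem2, Fcgr1 and Fcgr4, and the cytoskeletal gene Plek. Over the whole window, 19 of the 29 genes held the letters. Capitals mark GAGGAA or, on the other strand, TTCCTC.
Clec4e, chr6:123289872-123290021, minus strand: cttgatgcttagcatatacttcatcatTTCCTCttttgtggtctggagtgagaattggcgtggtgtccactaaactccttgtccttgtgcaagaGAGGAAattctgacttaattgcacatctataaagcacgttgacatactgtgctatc
Itgam, chr7:128062490-128062639, plus strand: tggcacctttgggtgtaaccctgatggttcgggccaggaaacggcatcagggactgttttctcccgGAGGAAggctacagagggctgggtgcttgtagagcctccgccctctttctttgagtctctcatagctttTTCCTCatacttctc
C1qb, chr4:136886201-136886350, minus strand: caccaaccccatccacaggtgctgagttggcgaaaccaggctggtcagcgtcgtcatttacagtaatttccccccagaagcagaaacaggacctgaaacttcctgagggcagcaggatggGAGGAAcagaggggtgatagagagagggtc
Fcgr1, chr3:96293970-96294119, minus strand: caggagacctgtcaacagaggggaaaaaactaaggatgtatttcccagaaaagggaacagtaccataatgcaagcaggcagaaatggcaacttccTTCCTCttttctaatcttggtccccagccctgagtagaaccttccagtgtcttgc
Fcgr4, chr1:171018776-171018925, plus strand: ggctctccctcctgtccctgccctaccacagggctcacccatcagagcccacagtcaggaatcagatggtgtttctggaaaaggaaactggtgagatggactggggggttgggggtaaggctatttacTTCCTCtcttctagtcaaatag
Trem2, chr17:48346251-48346400, plus strand: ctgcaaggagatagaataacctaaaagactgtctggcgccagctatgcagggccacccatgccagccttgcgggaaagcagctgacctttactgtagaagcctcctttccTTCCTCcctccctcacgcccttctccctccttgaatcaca
Plek, chr11:17008719-17008868, minus strand: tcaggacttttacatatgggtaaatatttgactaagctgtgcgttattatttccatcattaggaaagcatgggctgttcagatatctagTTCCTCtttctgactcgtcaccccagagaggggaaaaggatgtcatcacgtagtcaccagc
Cx3cr1, chr9:120068297-120068446, minus strand: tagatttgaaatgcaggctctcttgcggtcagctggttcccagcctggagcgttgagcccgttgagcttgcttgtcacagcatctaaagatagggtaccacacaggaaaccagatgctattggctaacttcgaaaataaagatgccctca
Clec4e and Itgam held the letters at 2 places in this window, the next 5 promoters held them once, and Cx3cr1 did not hold them. In Itgam the matches began 84 and 15 bases before the start.

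Between 12485600 and 20477000 reads per library fell on genes, of which the 37 members took 0.0216% to 0.0991%. Expression is given as CPM, read counts scaled to a common library total with edgeR's TMM method, and fold changes are on a log2 scale with their standard error (SE) from edgeR's quasi-likelihood test, called at a Benjamini-Hochberg adjusted p under 0.05 over all genes tested. The comparisons with day 0 share the same 4 day 0 libraries. The deposited table of each library is named with a number. This number has 3 digits for replicates 1 and 2 of day 1 and for replicates 1, 2 and 3 of day 3, and 1 digit for every other library, those of day 0 included. No label gives a meaning to this format, which is treated as a possible batch, and values are therefore also given within it. Libraries with 3-digit numbers exist only after injury, so against day 0 their format and their day cannot be told apart. Scaling by total reads in place of TMM moved the median of all genes by 0.19 at day 3 against day 0, with 3625 higher and 1286 lower genes in place of 2783 and 1974. It moved the medians of day 3 against day 1 by 0.17, with 1721 higher and 487 lower genes in place of 1219 and 1057, and of 3-digit against 1-digit libraries at day 1 by 0.24, with 3909 and 1439 in place of 2656 and 2345. Replicate 2 of day 0 stood apart from the other day 0 libraries in many members, as the values of each gene show.

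Most of the myeloid genes called after IRI, with each day's libraries pooled, were higher. More were higher at day 3 than at day 1. At day 1, 12 of the 37 members were higher than at day 0 (23.3% of all genes tested were called higher), 2 were lower (18.7% of all genes) and 23 were not called. At day 3, 20 members were higher (19.5% of all genes), 2 were lower (13.8%) and 15 were not called. From day 1 to day 3, 14 members rose (8.52% of all genes), 0 fell by edgeR (7.39% of all genes; 0 also by DESeq2, and 1, Fcgr2b, at an unadjusted p under 0.05) and 23 were not called. The median log2 fold change of the members was 0.57 at day 1, 1.47 at day 3 and 1.06 between these days, beside medians over all genes of 0.01, 0.05 and 0.02. The libraries of the groups did not overlap for 9 members that were higher at day 1 (21.5% of all genes), for 15 at day 3 (16.9%) and for 7 between day 1 and day 3 (4.14%). Summed over the 37 members, expression was 260 to 400 CPM at day 0, 240 to 338 CPM at day 1 and 338 to 863 CPM at day 3. At day 1 this sum did not exceed the day 0 range. At day 3 only the 3-digit libraries did, at 557 to 863 CPM, beside 338 and 374 CPM in the 1-digit libraries. Without replicate 2 of day 0, 14 members were higher at day 1 and 21 at day 3. Leaving out each library in turn, 11 of the 14 calls at day 1, 19 of the 22 at day 3 and 9 of the 14 between these days were kept throughout.

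**Figure D1:**
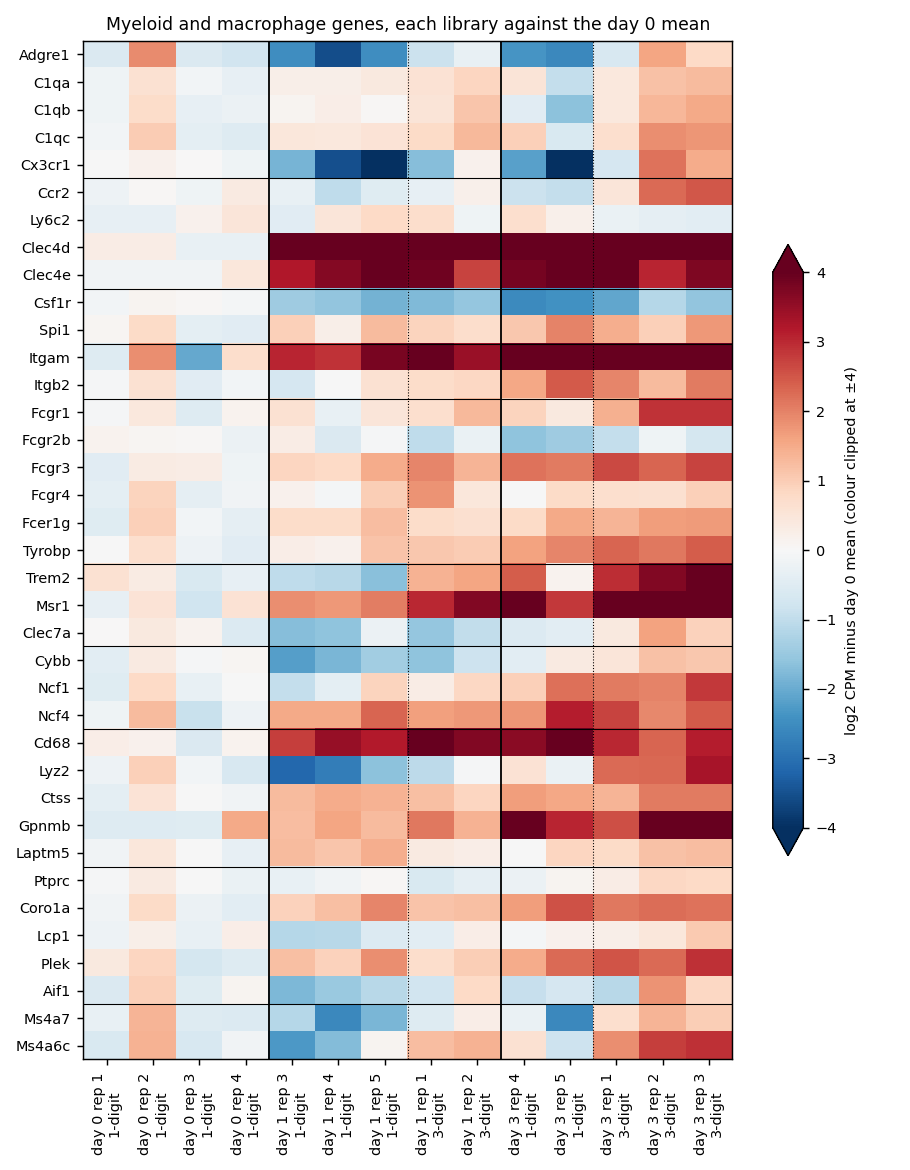
Colours show log2 CPM (prior count 2) of each of the 37 genes (rows, grouped by role between black lines) in each of the 14 libraries (columns, by day and number format), minus the mean of the 4 day 0 libraries, with colours clipped at 4 on either side. For 14 genes, among them Clec4d, Clec4e, Itgam, Msr1 and Cd68, the value was above the day 0 mean in all 10 libraries of day 1 and day 3, and for Csf1r it was below in all 10.

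Kidney cells around these phagocytes changed as well. Summed over 10 genes of the proximal tubule, expression was 45657 to 50330 CPM at day 0, 19926 to 50172 CPM at day 1 and 10215 to 22898 CPM at day 3, with 3 of the 10 genes lower at day 1 and 5 lower at day 3 (18.7% and 13.8% of all genes). The most abundant of these 10 was Kap (mean 19786 CPM over all libraries), which was not called at day 1, at -0.19 (edgeR adjusted p = 0.604). Those lower at day 1 were Lrp2, Cubn and Slc27a2, at -2.15, -1.60 and -0.93 (edgeR adjusted p = 0.0107, 0.0122 and 0.0185). Summed over 8 genes of tubular injury, expression was 390 to 475 CPM, 3147 to 8362 CPM and 2242 to 7068 CPM, with 7 of the 8 higher at either day (23.3% and 19.5% of all genes). CPM is a share of all reads, and the part of these shifts in the changes of the myeloid genes was not tested.

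None of the 5 resident macrophage genes was called when all libraries of a day were pooled, and their libraries spread widely. Adgre1, the F4/80 antigen, was at 2.13, 12.4, 2.15 and 1.88 CPM in replicates 1 to 4 of day 0, at 1.72, 2.63, 0.477, 0.172 and 0.483 CPM in replicates 1 to 5 of day 1, and at 2.04, 9.86, 5.74, 0.538 and 0.441 CPM in those of day 3. Replicate 2 of day 0 was far above its group, and every 1-digit library after injury lay below every day 0 library. Unless stated, the fold changes from day 0 that follow include this replicate. It raises the day 0 level that they start from, so their size depends on it. Relative to day 0 the log2 fold change was -2.04 at day 1 (SE 0.94, edgeR adjusted p = 0.0928), and -2.66 (edgeR adjusted p = 0.0471) without replicate 2 of day 1. It was -0.31 at day 3 (SE 0.90, edgeR adjusted p = 0.812), and 1.73 from day 1 to day 3 (SE 0.90, edgeR adjusted p = 0.202). In the 1-digit libraries alone it was -3.64 at day 1 (edgeR adjusted p = 0.00288) and -3.22 at day 3 (edgeR adjusted p = 0.0143), and in the 3-digit libraries it was -1.09 and 0.34 (edgeR adjusted p = 0.288 and 0.725). Without replicate 4 or 5 of day 3, a single 1-digit library remained at day 3 and the 1-digit value was -3.37 (edgeR adjusted p = 0.0704) or -3.07 (edgeR adjusted p = 0.0962). With replicate 2 of day 0 left out, the 3-digit value at day 3 was called, at 1.51 (edgeR adjusted p = 0.0369).

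Cx3cr1, the fractalkine receptor, had an even day 0 group and was spread widely after injury. It was at 2.47, 2.88, 2.53 and 2.24 CPM at day 0, at 0.701, 2.86, 0.613, 0.114 and 0 CPM at day 1, and at 1.53, 11.9, 7.33, 0.471 and 0 CPM at day 3. Replicate 5 of day 1 and of day 3 held 0 reads of it, which allows up to 0.241 and 0.220 CPM (3 reads). The pooled log2 fold change was -1.49 at day 1 (SE 1.11, edgeR adjusted p = 0.287) and 0.75 at day 3 (SE 1.08, edgeR adjusted p = 0.612). Between the later days it was 2.25 (SE 1.07, edgeR adjusted p = 0.163), and 3.51 (edgeR adjusted p = 0.0436) without replicate 2 of day 1. Within the 1-digit libraries it fell by 3.32 at day 1 (edgeR adjusted p = 0.00903) and by 3.34 at day 3 (edgeR adjusted p = 0.0241), the last of which became -2.38 (edgeR adjusted p = 0.163) without replicate 5 of day 3. These 1-digit groups rest on 0 to 9 reads per library, compared with 37 to 49 at day 0. In the 3-digit libraries the values were -0.49 and 1.44 (edgeR adjusted p = 0.66 and 0.124).

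C1qa, C1qb and C1qc encode the chains of C1q, which starts the classical complement cascade. C1qa was at 7.92 to 15.5 CPM at day 0, 11.8 to 18.3 CPM at day 1 and 5.14 to 24.4 CPM at day 3. C1qb was at 7.48, 14.2, 6.76 and 7.14 CPM at day 0, at 12.2, 18.6, 9.13, 10.1 and 8.85 CPM at day 1, and at 11.4, 21.4, 24.3, 6.19 and 2.64 CPM at day 3. C1qc was at 5.20 to 15.1 CPM, 10.1 to 18.4 CPM and 4.85 to 27.0 CPM. In all 3 genes replicate 2 was the highest library of day 0 and replicate 5 the lowest of day 3, and the groups overlapped. Pooled log2 fold changes of C1qa, C1qb and C1qc were 0.43, 0.41 and 0.60 at day 1 (SE 0.35, 0.50 and 0.44; edgeR adjusted p = 0.336, 0.528 and 0.277) and 0.63, 0.57 and 1.03 at day 3 (SE 0.35, 0.50 and 0.44; edgeR adjusted p = 0.18, 0.389 and 0.0853). Between day 1 and day 3 they were 0.20, 0.17 and 0.42 (SE 0.33, 0.46 and 0.41; edgeR adjusted p = 0.709, 0.834 and 0.501). At day 3, C1qa was called without replicate 5 of day 3, at 0.86 (edgeR adjusted p = 0.0243), and C1qc without that library, at 1.27 (edgeR adjusted p = 0.0208), or without replicate 2 of day 0, at 1.50 (edgeR adjusted p = 0.0284). In the 3-digit libraries of day 3 all 3 were called higher than at day 0, with log2 fold changes of 0.96, 1.09 and 1.39 (edgeR adjusted p = 0.0328, 0.0229 and 0.0207). Each of these 3 calls was lost without replicate 1, 3 or 4 of day 0 or replicate 2 or 3 of day 3, with edgeR adjusted p up to 0.139, 0.116 and 0.0797. In the 1-digit libraries of day 3 the values were -0.08, -1.01 and 0.23 (edgeR adjusted p = 0.868, 0.0558 and 0.7).

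Among the recruited monocyte genes, Clec4d and Clec4e rose at both days, while Ccr2 and Ly6c2 were not called in the pooled comparisons. Clec4d, which pairs with Clec4e to bind glycolipids, was at 0.0575, 0.0588, 0 and 0 CPM at day 0, at 5.12, 2.63, 4.57, 4.12 and 7.40 CPM at day 1, and at 17.5, 2.76, 10.9, 9.55 and 7.20 CPM at day 3. Clec4e, the receptor Mincle, was at 0, 0, 0 and 0.0605 CPM, at 1.83, 0.727, 1.09, 1.54 and 2.41 CPM, and at 3.72, 0.957, 1.63, 1.75 and 3.82 CPM. Every library after injury was above every day 0 library for both genes, in either number format. Clec4d had 2 reads in all of day 0 against 384 at day 1 and 854 at day 3, ratios of CPM of 150 (95% exact binomial interval 41.4 to 1247) and 331 (91.4 to 2738). For Clec4e 1 read at day 0 stood against 123 and 201, ratios of 96.4 (17.0 to 3837) and 156 (27.7 to 6185). These intervals cover counting error only. Against day 0, Clec4d had edgeR adjusted p = 2.48e-05 at day 1 and 1.12e-05 at day 3, and Clec4e had 0.000116 and 8.22e-05. From day 1 to day 3 the log2 fold change was 1.02 for Clec4d (SE 0.42, edgeR adjusted p = 0.108) and 0.65 for Clec4e (SE 0.45, edgeR adjusted p = 0.345). Without replicate 2 of day 3, the lowest of its group, Clec4d was called higher at day 3 than at day 1, by 1.25 (edgeR adjusted p = 0.0279).

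Ccr2, the receptor for Ccl2, was at 2.19, 2.59, 2.21 and 3.27 CPM at day 0, at 1.99, 2.95, 2.04, 1.20 and 1.77 CPM at day 1, and at 3.61, 12.6, 14.8, 1.34 and 1.25 CPM at day 3. The 3 libraries above day 0 at day 3 all had 3-digit numbers, and both 1-digit libraries of day 3 were below every day 0 library. The pooled log2 fold change was -0.36 at day 1 (SE 0.63, edgeR adjusted p = 0.668) and 1.40 at day 3 (SE 0.64, edgeR adjusted p = 0.103), which was called without replicate 4 or 5 of day 3, at 1.66 and 1.67 (edgeR adjusted p = 0.0472 and 0.0414). The change from day 1 to day 3 was 1.75 (SE 0.60, edgeR adjusted p = 0.0594), and between 1.95 and 2.01 (edgeR adjusted p from 0.0187 to 0.0475) without replicate 2 of day 1 or replicate 4 or 5 of day 3. In the 3-digit libraries of day 3 it was 2.01 (edgeR adjusted p = 0.00182) and in the 1-digit libraries -0.98 (edgeR adjusted p = 0.116). Ly6c2 was at 2.18 to 3.93 CPM at day 0, 1.98 to 4.91 CPM at day 1 and 2.03 to 4.44 CPM at day 3, with log2 fold changes of 0.32 and -0.02 (SE 0.34 for both, edgeR adjusted p = 0.465 and 0.977), and of -0.34 from day 1 to day 3 (SE 0.32, edgeR adjusted p = 0.501). Ly6c2 shares 13.9% of its 50-base stretches with Ly6c1, a near copy of it that endothelial cells express, so reads could be split between them. Ly6c2 had 6.79% to 15.1% of the CPM of Ly6c1 across the 14 libraries, and Ly6c1 was at 14.2 to 53.6 CPM. What share of the Ly6c2 reads came from monocytes cannot be told apart.

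**Figure D2:**
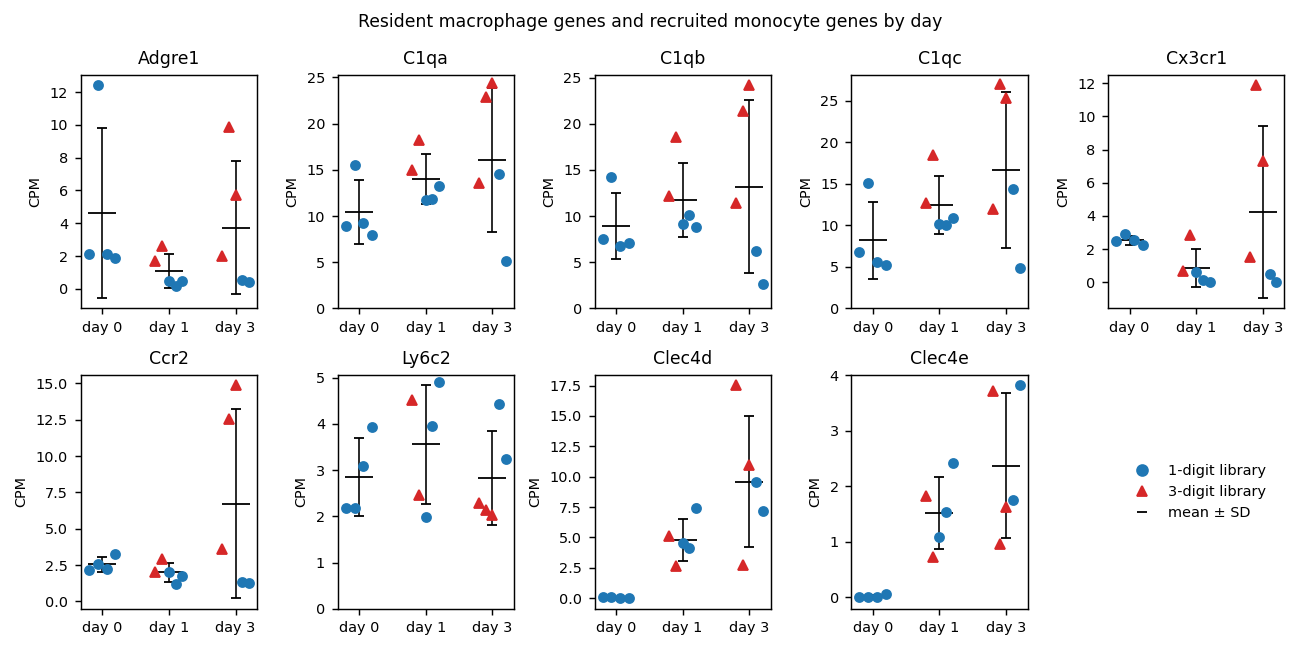
Each panel shows CPM of 1 gene in every library by day, with circles for 1-digit and triangles for 3-digit libraries, and the mean ± SD over the day as a bar. Clec4d and Clec4e were near 0 at day 0 and higher in every later library, while Adgre1, Cx3cr1 and Ccr2 at day 3 were higher in each triangle than in both circles.

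To set the recruited genes against the resident ones, the mean log2 CPM of Ccr2, Ly6c2, Clec4d and Clec4e minus that of Adgre1, C1qa, C1qb, C1qc and Cx3cr1 was taken in each library. The difference was -3.20 ± 0.67 (SD, n = 4) at day 0, -0.56 ± 1.00 (SD, n = 5) at day 1 and -0.61 ± 1.47 (SD, n = 5) at day 3. All day 0 libraries lay between -4.13 and -2.55, below all libraries of day 1 (-2.09 to 0.57) and day 3 (-2.51 to 1.31). At day 0 the resident genes were 2.50 ± 0.60 and the recruited genes -0.70 ± 0.17 in mean log2 CPM. At day 3 the resident genes were 2.56 ± 1.52 and the recruited genes 1.95 ± 0.34. Most of the shift came from Clec4d and Clec4e, which neutrophils also express. Clec4d went from between -3.09 and -2.50 in log2 CPM at day 0 to between 1.52 and 4.14 at day 3, and Clec4e from between -3.09 and -2.49 to between 0.10 and 1.98. Ccr2 (1.20 to 1.76 at day 0 and 0.45 to 3.90 at day 3) and Ly6c2 (1.20 to 2.02 and 1.10 to 2.19) overlapped between these days. By number format the difference was -0.01 ± 0.59 (SD, n = 3) in the 1-digit and -1.39 ± 0.98 (SD, n = 2) in the 3-digit libraries of day 1, and 0.62 ± 0.98 (SD, n = 2) and -1.43 ± 1.14 (SD, n = 3) at day 3. Clec4d and Clec4e had 0 or 1 read in each day 0 library, so that their day 0 level is set largely by the prior count, and the other genes of this difference had 31 to 264. The day 0 value moved to -4.01 with a prior count of 0.5. As the genes were chosen for this contrast, no p-value is given.

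**Figure D3:**
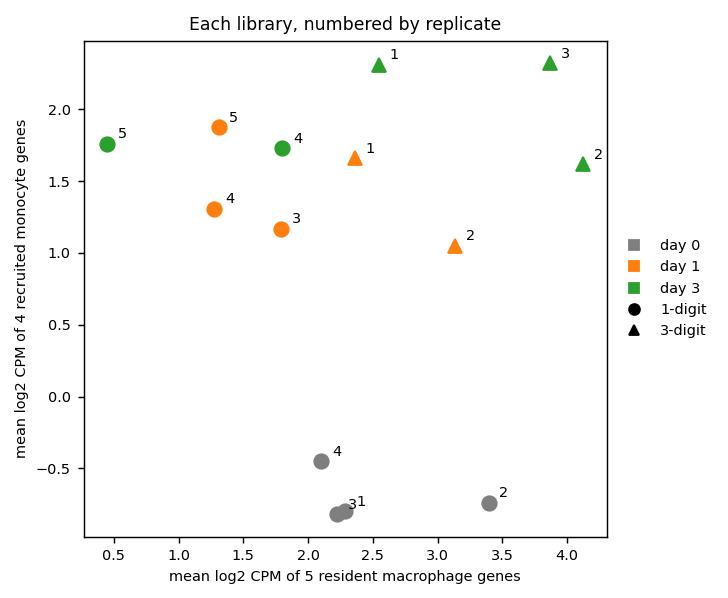
Each point is 1 library, numbered by replicate, with the mean log2 CPM of the 5 resident genes on the x axis and that of the 4 recruited genes on the y axis. The 4 day 0 libraries had recruited levels between -0.82 and -0.45, and the 10 later libraries between 1.05 and 2.32, while resident levels after injury ran from 0.45 to 4.12.

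Csf1r, the receptor for the macrophage growth factors Csf1 and Il34, fell after IRI. It was at 84.0, 98.0, 92.9 and 86.0 CPM at day 0, at 26.1, 30.4, 33.5, 29.9 and 24.2 CPM at day 1, and at 21.2, 40.6, 30.1, 15.3 and 16.8 CPM at day 3. No library after injury reached the day 0 range. The log2 fold change was -1.65 at day 1 (SE 0.24, edgeR adjusted p = 0.000185) and -1.86 at day 3 (SE 0.24, edgeR adjusted p = 0.000123). Between both later days it was -0.22 (SE 0.22, edgeR adjusted p = 0.536). Csf1r was called lower within either number format at either day, with log2 fold changes between -2.49 and -1.56, and with every library left out in turn. Spi1, which encodes PU.1, was at 1.09 to 2.71 CPM at day 0, 1.83 to 3.86 CPM at day 1 and 3.10 to 6.46 CPM at day 3, when it rose by 1.47 (SE 0.34, edgeR adjusted p = 0.00572) and no library overlapped with day 0. At day 1 the value was 0.79 (SE 0.34, edgeR adjusted p = 0.0749), and without replicate 2 of day 0 it was called, at 1.14 (edgeR adjusted p = 0.0227). The step from day 1 to day 3 was 0.68 (SE 0.31, edgeR adjusted p = 0.148).

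Per kilobase of exon, Lyz2 and Csf1r were the most abundant members at day 0, at 25.8 ± 13.6 and 15.6 ± 1.11 CPM per kilobase (RPKM; SD, n = 4). Their libraries overlapped (15.2 to 45.7 and 14.5 to 17.0 RPKM). At day 1 Cd68 stood first with 18.8 ± 7.02 RPKM, followed by Ctss with 15.8 ± 2.57 RPKM and C1qa with 13.5 ± 2.60 RPKM (SD, n = 5), and again their ranges overlapped. At day 3 Lyz2 was first with 103 ± 83.6 RPKM, followed by Tyrobp with 31.6 ± 6.72 RPKM and Ctss with 22.6 ± 5.15 RPKM, and Csf1r had moved from rank 2 at day 0 to rank 14. The values of Lyz2 ranged from 19.5 to 230 RPKM at day 3, across those of Tyrobp and Ctss.

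Itgam and Itgb2 are the chains of the integrin CD11b/CD18 (Mac-1), with which phagocytes leave vessels. Itgam rose at day 1 and again at day 3, and Itgb2 at day 3. Itgam was at 0.403, 2.59, 0.0632 and 1.09 CPM at day 0, at 12.9, 8.04, 6.07, 5.43 and 10.1 CPM at day 1, and at 40.6, 15.5, 28.3, 17.1 and 29.0 CPM at day 3. The 3 groups did not overlap, and 3-digit and 1-digit libraries were interleaved within each day. The log2 fold change was 3.02 at day 1 (SE 0.61, edgeR adjusted p = 0.00168), 4.64 at day 3 (SE 0.64, edgeR adjusted p = 0.0002) and 1.62 from day 1 to day 3 (SE 0.49, edgeR adjusted p = 0.0394). The last of these was lost without replicate 4 of day 0, replicate 3, 4 or 5 of day 1 or replicate 1 or 3 of day 3, with edgeR adjusted p between 0.0516 and 0.0988. Itgam shares 66.3% of its 50-base stretches with the overlapping gene Gm49368, which covers 3450 of its 5024 exon bases on the same strand, so many of its reads may not have been counted and its level is uncertain. Itgb2 was at 2.08 to 4.47 CPM at day 0, 1.77 to 5.31 CPM at day 1 and 7.15 to 16.4 CPM at day 3. It was not called at day 1, at 0.36 (SE 0.35, edgeR adjusted p = 0.412), and rose at day 3 by 1.90 (SE 0.36, edgeR adjusted p = 0.00147) and from day 1 to day 3 by 1.54 (SE 0.32, edgeR adjusted p = 0.00846).

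Of the 4 Fc receptors, which bind antibody, 2 were called higher at day 3 (19.5% of all genes) and 1 lower (13.8%). Fcgr3, an activating receptor, was at 2.01 to 3.53 CPM at day 0, 4.92 to 11.0 CPM at day 1 and 12.1 to 18.6 CPM at day 3, with no overlap between any of the days. Its log2 fold change was 1.35 at day 1 (SE 0.27, edgeR adjusted p = 0.0018), 2.41 at day 3 (SE 0.28, edgeR adjusted p = 6.53e-05) and 1.06 from day 1 to day 3 (SE 0.25, edgeR adjusted p = 0.0129). Fcgr1, the high-affinity activating receptor, was at 0.379 to 0.824 CPM, 0.457 to 1.64 CPM and 0.808 to 5.12 CPM, and rose at day 3 by 2.19 (SE 0.57, edgeR adjusted p = 0.0103). At day 1 it was at 0.70 (SE 0.57, edgeR adjusted p = 0.333), and from day 1 to day 3 at 1.49 (SE 0.51, edgeR adjusted p = 0.0587), with values from 1.68 to 1.76 (edgeR adjusted p up to 0.0483) without replicate 2 of day 1 or replicate 4 or 5 of day 3. Against day 0, the day 3 value was 2.69 in the 3-digit libraries (edgeR adjusted p = 0.000454) and 0.72 in the 1-digit libraries (edgeR adjusted p = 0.256). Fcgr2b, the inhibitory receptor, which B cells also express, was at 35.3 to 46.0 CPM at day 0, 20.6 to 51.3 CPM at day 1 and 13.7 to 37.0 CPM at day 3, and fell at day 3 by 0.89 (SE 0.28, edgeR adjusted p = 0.0265). This call was lost without replicate 1, 2 or 3 of day 0 or replicate 1, 4 or 5 of day 3 (edgeR adjusted p between 0.0537 and 0.066). Fcgr2b was at -0.27 at day 1 (SE 0.28, edgeR adjusted p = 0.455) and -0.62 from day 1 to day 3 (SE 0.27, edgeR adjusted p = 0.129), the latter -0.86 (edgeR adjusted p = 0.0336) without replicate 2 of day 3. Summed over 6 B cell genes, expression was 0.505 to 2.24 CPM at day 0 and 0.269 to 1.35 CPM at day 3, far below Fcgr2b. Which cells the Fcgr2b reads came from was not tested. Fcgr4, another activating receptor, was at 0.805 to 2.12 CPM, 1.03 to 4.04 CPM and 1.08 to 2.23 CPM and was not called, at 0.77 at day 1, 0.57 at day 3 and -0.21 between them (SE 0.44, 0.44 and 0.40; edgeR adjusted p = 0.167, 0.329 and 0.76). Fcgr3 shares 9.58% of its 50-base stretches with Fcgr2b, so some of their reads may not have been counted.

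Fcer1g and Tyrobp, the adaptors through which activating receptors signal, rose at day 3. Tyrobp was at 3.45 to 7.71 CPM at day 0, 5.37 to 10.8 CPM at day 1 and 14.9 to 26.2 CPM at day 3, which was above all earlier libraries. It rose by 2.07 at day 3 (SE 0.29, edgeR adjusted p = 0.000244) and by 1.33 from day 1 to day 3 (SE 0.26, edgeR adjusted p = 0.00678). At day 1 the value was 0.74 (edgeR adjusted p = 0.0485), a call lost without replicate 1, 3 or 4 of day 0, replicate 1, 2 or 5 of day 1 or replicate 1, 2 or 3 of day 3, with edgeR adjusted p up to 0.137. Fcer1g was at 2.13 to 5.88 CPM, 4.77 to 7.16 CPM and 5.18 to 9.95 CPM, and rose at day 3 by 1.35 (SE 0.31, edgeR adjusted p = 0.00533). At day 1 it was at 0.72 (SE 0.31, edgeR adjusted p = 0.0715), and at 1.17 (edgeR adjusted p = 0.00632) without replicate 2 of day 0. From day 1 to day 3 it was at 0.62 (SE 0.28, edgeR adjusted p = 0.146).

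Of the 3 receptors for lipids, debris and microbes, Msr1 and Trem2 were called higher at day 3 (19.5% of all genes) and Clec7a was not. Msr1, a scavenger receptor, was at 0.403, 0.824, 0.253 and 0.847 CPM at day 0, at 5.12, 8.22, 2.25, 2.06 and 2.57 CPM at day 1, and at 24.3, 14.8, 35.6, 11.97 and 4.48 CPM at day 3. All later libraries were above day 0, and in both later groups the 3-digit libraries were the highest. The log2 fold change was 2.79 at day 1 (SE 0.64, edgeR adjusted p = 0.00389), 4.95 at day 3 (SE 0.68, edgeR adjusted p = 0.000201) and 2.16 from day 1 to day 3 (SE 0.52, edgeR adjusted p = 0.0155). In the 1-digit libraries alone Msr1 rose by 1.96 and 3.80 against day 0 (edgeR adjusted p = 0.00359 and 5.47e-05).

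Trem2, a lipid receptor that signals through Tyrobp, was at 0.460, 0.353, 0.126 and 0.181 CPM at day 0, at 0.862, 0.999, 0.0682, 0.0571 and 0 CPM at day 1, and at 2.80, 4.79, 6.04, 1.88 and 0.294 CPM at day 3. At day 1 the 2 libraries with 3-digit numbers were above every day 0 library and the 3 with 1-digit numbers below. Trem2 rose by 3.46 at day 3 (SE 0.97, edgeR adjusted p = 0.0147) and by 2.89 from day 1 to day 3 (SE 0.84, edgeR adjusted p = 0.0335), the latter lost without replicate 3, 4 or 5 of day 1 or replicate 1, 2 or 3 of day 3 (edgeR adjusted p up to 0.0804). At day 1 it was at 0.57 (SE 0.98, edgeR adjusted p = 0.66), which pools formats that lay on opposite sides of day 0. Within either format Trem2 was called at day 1, and both calls were lost in some fits that left out 1 library. With the number format as a term, the day 3 value was 1.56 (edgeR adjusted p = 0.0726). At day 1, 38 reads in the 3-digit libraries stood against 2 in the 1-digit libraries, a ratio of CPM of 20.9 (95% exact binomial interval 5.40 to 179). The 19 reads of day 0 gave a ratio of 6.35 (1.53 to 56.2) to the same 1-digit libraries. Clec7a, the beta-glucan receptor dectin-1, was at 1.21 to 2.41 CPM at day 0, 0.477 to 1.53 CPM at day 1 and 1.21 to 5.75 CPM at day 3. It rose from day 1 to day 3 by 1.88 (SE 0.47, edgeR adjusted p = 0.0174), was at 0.61 at day 3 against day 0 (SE 0.47, edgeR adjusted p = 0.332), and at day 1 lay just outside the threshold, at -1.27 (SE 0.49, edgeR adjusted p = 0.0501). The last value was called lower without replicate 4 of day 0, replicate 5 of day 1 or replicate 2, 4 or 5 of day 3 (edgeR adjusted p from 0.0218 to 0.0496).

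The phagocyte oxidase, which makes superoxide, had members that moved apart at day 1. Cybb, the membrane subunit that carries the electrons, was at 3.57, 6.24, 4.67 and 5.14 CPM at day 0, at 1.51, 2.63, 0.954, 1.26 and 1.77 CPM at day 1, and at 6.77, 11.1, 10.2, 3.56 and 6.24 CPM at day 3. All day 1 libraries were below all others, and day 3 overlapped with day 0. Cybb fell by 1.58 at day 1 (SE 0.35, edgeR adjusted p = 0.00322), rose by 2.21 from day 1 to day 3 (SE 0.34, edgeR adjusted p = 0.00219) and was at 0.63 at day 3 against day 0 (SE 0.35, edgeR adjusted p = 0.171). Ncf4, a cytosolic subunit, rose by 1.64 at day 1 (SE 0.44, edgeR adjusted p = 0.00951) and by 2.35 at day 3 (SE 0.45, edgeR adjusted p = 0.00172), from 0.442 to 2.35 CPM at day 0 to 2.86 to 5.07 CPM and 3.43 to 8.96 CPM, and was at 0.72 between these days (SE 0.39, edgeR adjusted p = 0.218). Ncf1, the organizer subunit, was at 1.26 to 3.29 CPM at day 0 and 0.886 to 3.46 CPM at day 1, and rose at day 3 to 3.63 to 13.8 CPM, by 2.10 (SE 0.46, edgeR adjusted p = 0.00404) against day 0 and by 1.89 (SE 0.42, edgeR adjusted p = 0.0109) against day 1. At day 1 it was at 0.21 (SE 0.45, edgeR adjusted p = 0.733). Cyba, a further subunit, which tubular cells also express, was at 0.27 at day 1 (edgeR adjusted p = 0.4) and fell by 0.80 at day 3 (edgeR adjusted p = 0.0243). Rac2 was not called, at 0.13 and 1.22 (edgeR adjusted p = 0.835 and 0.0522).

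All 5 lysosome and granule genes were called higher at day 3 (19.5% of all genes). Cd68, a lysosomal glycoprotein used as a macrophage marker, was at 2.36, 2.18, 1.26 and 2.12 CPM at day 0, at 37.0, 26.5, 13.8, 22.6 and 18.4 CPM at day 1, and at 16.4, 10.1, 18.1, 24.6 and 45.5 CPM at day 3. It was about as high at day 1 as at day 3, and the 3-digit libraries were the highest at day 1 and the lowest at day 3. The log2 fold change was 3.57 at day 1 (SE 0.44, edgeR adjusted p = 6.09e-05) and 3.53 at day 3 (SE 0.44, edgeR adjusted p = 0.000105). Between day 1 and day 3 it was -0.05 (SE 0.35, edgeR adjusted p = 0.939) with all libraries and 0.92 with only 1-digit libraries (edgeR adjusted p = 0.0292).

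Lyz2, the lysozyme of macrophages and neutrophils, was not called at day 1 and was higher at day 3. It was at 26.7, 60.1, 28.7 and 20.02 CPM at day 0, at 14.9, 30.1, 3.41, 4.46 and 9.89 CPM at day 1, and at 150, 154, 303, 46.5 and 25.6 CPM at day 3. Within each later day the 3-digit libraries were above the 1-digit libraries. Lyz2 rose from day 1 to day 3 by 3.42 (SE 0.70, edgeR adjusted p = 0.00774). Against day 0 it was at -1.42 at day 1 (SE 0.69, edgeR adjusted p = 0.107), and at -2.05 (edgeR adjusted p = 0.0258) without replicate 2 of day 1. At day 3 it was at 2.00 (SE 0.72, edgeR adjusted p = 0.0438), a call lost without replicate 1, 3 or 4 of day 0, replicate 1 or 5 of day 1 or replicate 1, 2 or 3 of day 3 (edgeR adjusted p up to 0.116). In the 1-digit libraries it fell by 2.54 at day 1 (edgeR adjusted p = 0.000726) and was at 0.09 at day 3 (edgeR adjusted p = 0.885), and in the 3-digit libraries it was at -0.59 (edgeR adjusted p = 0.366) and rose by 2.58 (edgeR adjusted p = 0.000705). Lyz2 shares 15.4% of its 50-base stretches with Lyz1.

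Gpnmb, a membrane glycoprotein of lipid-laden phagocytes, was at 0.0575, 0.0588, 0.0632 and 0.605 CPM at day 0, at 0.970, 0.545, 0.477, 0.629 and 0.483 CPM at day 1, and at 1.37, 10.6, 8.27, 4.30 and 1.98 CPM at day 3. Its day 3 libraries did not overlap with the others, and replicate 4 of day 0 lay among those of day 1. Gpnmb rose by 4.71 at day 3 (SE 0.79, edgeR adjusted p = 0.000781) and by 3.07 from day 1 to day 3 (SE 0.64, edgeR adjusted p = 0.0082). At day 1 it was at 1.64 (SE 0.79, edgeR adjusted p = 0.107), and at 3.24 (edgeR adjusted p = 0.0133) without replicate 4 of day 0. Ctss, the lysosomal protease cathepsin S, was at 6.79 to 13.2 CPM at day 0, 16.1 to 25.3 CPM at day 1 and 22.9 to 38.4 CPM at day 3, with log2 fold changes of 1.22 and 1.74 (SE 0.22 for both, edgeR adjusted p = 0.000868 and 0.000134), and 0.52 between these days (SE 0.20, edgeR adjusted p = 0.0921). Laptm5, a lysosomal membrane protein of blood cells, was at 6.59 to 11.4 CPM, 9.99 to 22.8 CPM and 8.14 to 19.4 CPM, and at 0.94 and 0.84 against day 0 (edgeR adjusted p = 0.0215 and 0.0429). From day 1 to day 3 it was at -0.10 (SE 0.28, edgeR adjusted p = 0.83). The day 1 call was lost without replicate 1, 3 or 4 of day 0 or replicate 5 of day 1, and the day 3 call without the same day 0 libraries, replicate 4 of day 1 or replicate 1, 2, 3 or 5 of day 3, with edgeR adjusted p up to 0.0649 and 0.114.

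Genes of the leukocyte cytoskeleton did not move as one. Coro1a, an actin-binding protein of white blood cells, was at 3.15 to 7.36 CPM at day 0, 8.11 to 16.9 CPM at day 1 and 13.8 to 25.3 CPM at day 3, with log2 fold changes of 1.27 and 2.12 (SE 0.29 for both, edgeR adjusted p = 0.00342 and 0.000201). Between day 1 and day 3 it rose by 0.85 (SE 0.26, edgeR adjusted p = 0.0385), a call lost without any 1 of 9 libraries (replicates 1 and 3 of day 0, 1, 3 and 4 of day 1 and 1, 2, 3 and 5 of day 3; edgeR adjusted p up to 0.0906). Plek, a substrate of protein kinase C, was at 1.20 to 3.77 CPM, 3.40 to 7.64 CPM and 5.99 to 16.1 CPM, and rose at day 3 by 2.27 (SE 0.39, edgeR adjusted p = 0.000863) and from day 1 to day 3 by 1.20 (SE 0.34, edgeR adjusted p = 0.0309), the latter lost without replicate 1, 3 or 4 of day 1 or replicate 1 or 3 of day 3 (edgeR adjusted p up to 0.0839). Its day 1 value of 1.07 (edgeR adjusted p = 0.0338) was lost without replicate 1, 3 or 4 of day 0 or replicate 3 or 5 of day 1 (edgeR adjusted p up to 0.1). Ptprc, the pan-leukocyte antigen CD45, was at 5.75 to 9.0 CPM, 4.53 to 7.24 CPM and 5.92 to 12.6 CPM and was not called at either day, at -0.28 and 0.40 (SE 0.24 for both, edgeR adjusted p = 0.364 and 0.212). From day 1 to day 3 it was at 0.69 (SE 0.23, edgeR adjusted p = 0.0559), and at 0.81 and 0.73 (edgeR adjusted p = 0.032 and 0.0443) without replicate 4 or 5 of day 3. Lcp1, which bundles actin, was at 20.97 to 31.4 CPM, 11.7 to 31.5 CPM and 24.3 to 53.2 CPM, and was called from day 1 to day 3, at 0.90 (SE 0.28, edgeR adjusted p = 0.0397), a call lost without any 1 of 10 libraries (replicates 1, 2 and 3 of day 0, 1, 3, 4 and 5 of day 1 and 1, 2 and 3 of day 3; edgeR adjusted p up to 0.111). Against day 0 it was at -0.51 at day 1 (SE 0.29, edgeR adjusted p = 0.166), and at -0.80 (edgeR adjusted p = 0.0206) without replicate 2 of day 1, and at 0.39 at day 3 (SE 0.29, edgeR adjusted p = 0.314). Aif1, the calcium-binding protein Iba1, was at 0.633 to 2.06 CPM, 0.204 to 1.82 CPM and 0.407 to 3.83 CPM and was not called, at -0.73, 0.37 and, between the days, 1.10 (SE 0.75, 0.74 and 0.71; edgeR adjusted p = 0.446, 0.723 and 0.304).

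Neither Ms4a gene, a family of membrane proteins of macrophages and lymphocytes, was called between days when all libraries of a day were pooled. Ms4a7 was at 0.363 to 1.71 CPM at day 0, 0 to 0.727 CPM at day 1 and 0 to 1.69 CPM at day 3, with log2 fold changes of -1.29, 0.31 and, between the days, 1.60 (SE 0.90, 0.85 and 0.85; edgeR adjusted p = 0.261, 0.797 and 0.211). With the number format as a term, Ms4a7 was at -2.87 at day 1 and -1.60 at day 3 (edgeR adjusted p = 0.00995 and 0.126). In the 1-digit libraries it was called at day 1, a call lost in some fits that left out 1 library. Ms4a6c was at 1.33 to 5.88 CPM, 0.341 to 5.86 CPM and 1.18 to 17.2 CPM, and in both later groups its 3-digit libraries were the highest. Its log2 fold changes were 0.14, 1.78 and 1.64 (SE 0.84, 0.86 and 0.79; edgeR adjusted p = 0.907, 0.122 and 0.166). Ms4a6c shares 5.85% of its 50-base stretches with Ms4a6b.

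**Figure D4:**
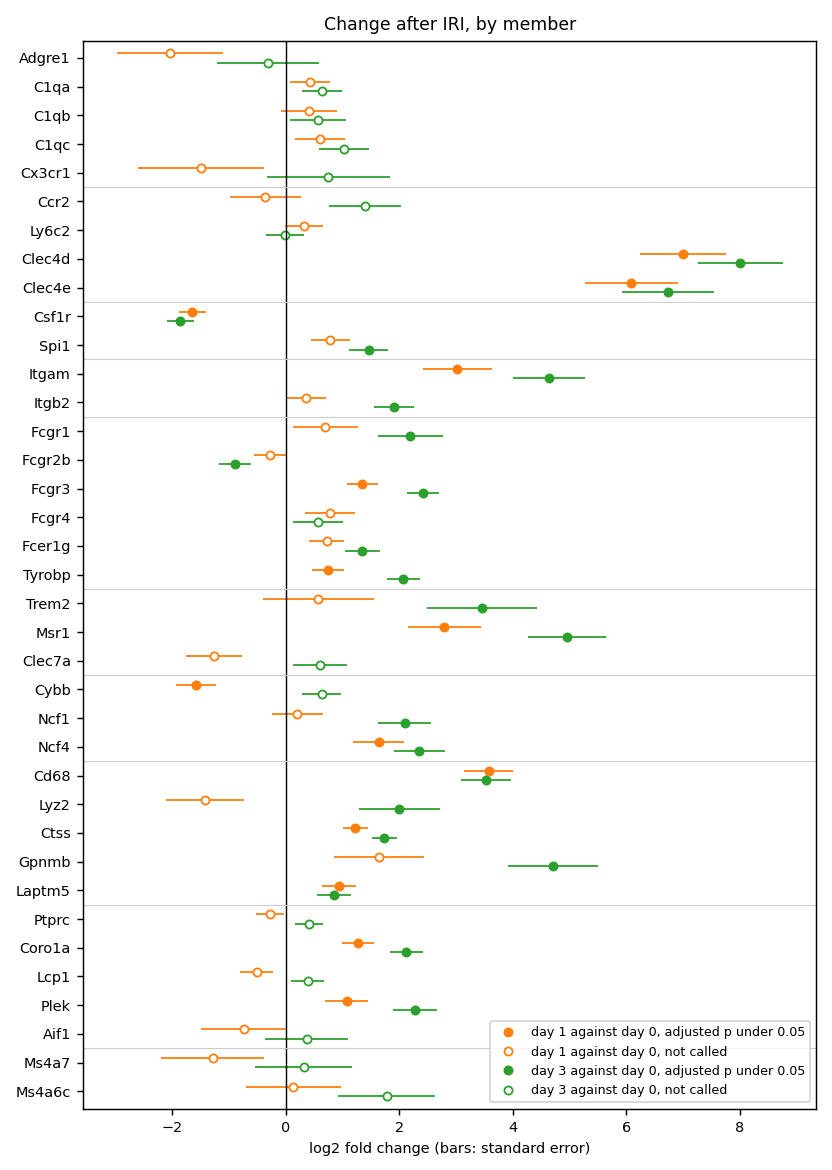
Points are log2 fold changes of the 37 genes at day 1 (orange) and day 3 (green) against day 0, with bars for the standard error and filled points for an edgeR adjusted p under 0.05. The day 3 point lies to the right of 0 for 33 of the 37 genes and the day 1 point for 25, and the values of Clec4d and Clec4e rest on 2 reads and 1 read at day 0.

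The members were also counted within each number format. In the 1-digit libraries, 11 members were higher and 9 lower at day 1 (28.9% and 29.6% of all genes) and 17 higher and 4 lower at day 3 (28.6% and 25.1%). In the 3-digit libraries, 11 were higher and 3 lower at day 1 (22.6% and 19% of all genes) and 27 higher and 1 lower at day 3 (19.1% and 13.3%). Summed over the members, the 3-digit libraries of day 3 had 557 to 863 CPM and the 1-digit libraries 338 and 374 CPM. A direct test of 3-digit against 1-digit libraries called 5 members higher and 1 lower at day 1 (18.6% and 16.4% of all genes), and 12 higher and 1 lower at day 3 (10.3% and 8.22%).

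The members higher in the 3-digit libraries of day 3 included Cx3cr1, with a log2 difference of 4.79 (SE 1.16, edgeR adjusted p = 0.0175), Adgre1 with 3.56 (SE 1.01, edgeR adjusted p = 0.0302), Ccr2 with 2.99 (SE 0.54, edgeR adjusted p = 0.00568) and C1qb with 2.10 (SE 0.44, edgeR adjusted p = 0.0102). Lyz2, Msr1, Trem2, Fcgr1, Ms4a6c, Clec7a, Csf1r and Fcgr2b were higher as well, by 0.93 to 2.56, and Cd68 was lower, at -1.23 (SE 0.31, edgeR adjusted p = 0.0205). Clec4d and Clec4e were not called, at 0.31 and -0.40 (edgeR adjusted p = 0.714 and 0.662). Each of the 13 calls was lost when at least 1 library was left out, and without replicate 5 of day 3, which leaves a single 1-digit library assumed to vary like the other groups, 0 members were called higher. Some other lists differed by format as well. At day 3 the summed genes of tubular injury were at 2242 to 5101 CPM in the 3-digit and 5241 and 7068 CPM in the 1-digit libraries, and the endothelial genes at 212 to 404 CPM and 618 and 951 CPM, while the neutrophil sums overlapped, at 19.8 to 139 CPM and 70.9 and 495 CPM. At day 1 the tubular injury genes were the other way round, at 8356 and 8362 CPM in the 3-digit and 3147 to 5693 CPM in the 1-digit libraries. The proximal tubule genes were at 19926 and 31365 CPM and 38479 to 50172 CPM at day 1 and overlapped at day 3, and the endothelial and neutrophil sums overlapped at day 1. Their part in the differences was not tested.

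At day 1, Trem2, Lyz2, Msr1, Ms4a6c and Lcp1 were higher and Laptm5 lower in the 3-digit libraries, at -0.97 (edgeR adjusted p = 0.0175). Of these 6 calls that of Trem2 was kept with each library left out. Those of Lyz2, Msr1 and Lcp1 were lost without replicate 2, 3 or 4 of day 1 (edgeR adjusted p up to 0.171, 0.189 and 0.354), that of Ms4a6c without replicate 1, 2, 3 or 4 (up to 0.106) and that of Laptm5 without replicate 1, 2 or 5 (up to 0.119). A test of whether the format difference changed between day 1 and day 3 called 4 members higher and 1 lower (9.1% and 8.45% of all genes). These were Ccr2, Csf1r, Fcgr2b and Laptm5, and Cd68, which turned from 0.79 at day 1 to -1.23 at day 3, a change of -2.03 (SE 0.44, edgeR adjusted p = 0.00814).

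**Figure D5:**
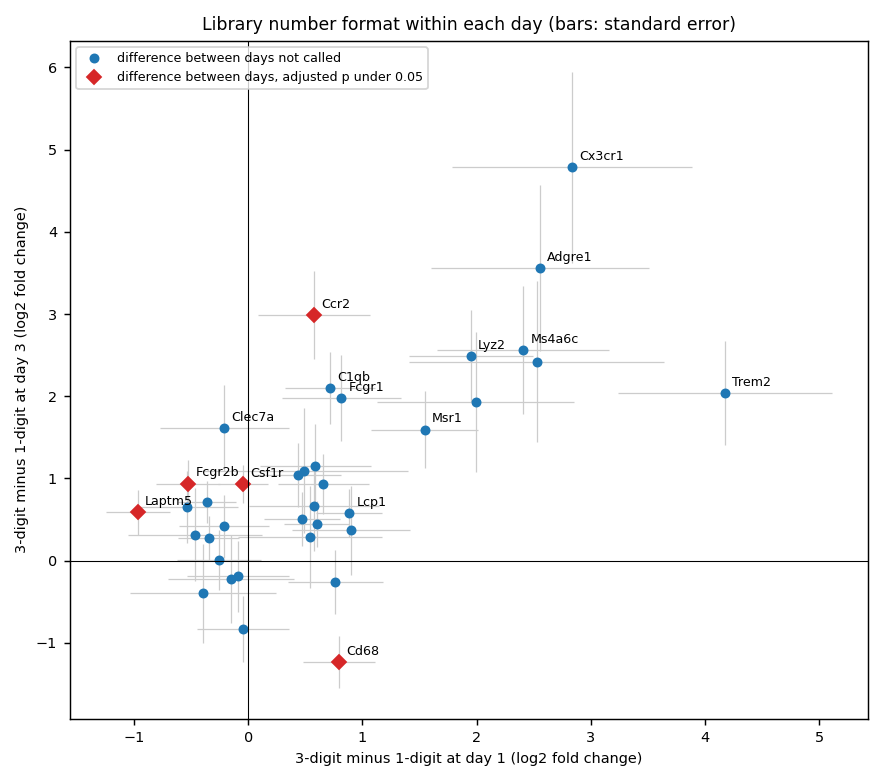
Each point is 1 of the 37 genes, with the log2 difference of 3-digit minus 1-digit libraries at day 1 on the x axis and at day 3 on the y axis, and bars for the standard error. Cx3cr1, Adgre1 and Trem2 lie far in the upper right, and red diamonds mark the 5 genes whose difference changed between the days, of which Cd68 alone lies below 0 at day 3.

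Both growth factors for Csf1r and some of the chemokines rose. Il34 rose by 2.93 at day 1 and 1.97 at day 3 (edgeR adjusted p = 0.000135 and 0.00198), from 18.5 to 23.6 CPM at day 0 to 93.6 to 208 CPM and 29.96 to 147 CPM. Csf1 rose by 2.18 and 1.86 (edgeR adjusted p = 0.000569 and 0.00199). Among 8 chemokines that attract monocytes, 5 passed the filter, of which 4 were higher at day 1 (23.3% of all genes) and 2 at day 3 (19.5%). Ccl2, the ligand of Ccr2, was at 0.302 to 1.12 CPM at day 0, 2.45 to 9.81 CPM at day 1 and 4.78 to 10.7 CPM at day 3, and rose by 3.00 and 3.71 (edgeR adjusted p = 0.000485 and 0.000188). Ccl5, which binds other chemokine receptors, was called at day 1, at 2.92 (edgeR adjusted p = 0.029), but not at day 3, at 1.67 (edgeR adjusted p = 0.198). Ccl7, another ligand of Ccr2, rose by 2.61 and 4.65 (edgeR adjusted p = 0.0295 and 0.00134). Cx3cl1, the ligand of Cx3cr1, was at 50.4 to 58.3 CPM, 58.5 to 125 CPM and 46.1 to 82.1 CPM, and was called at day 1, at 0.60 (edgeR adjusted p = 0.0393), but not at day 3, at 0.35 (edgeR adjusted p = 0.235).

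Lists of further macrophage and monocyte genes gave the following counts, with the most abundant genes of each named. Over all genes tested, 23.3% were higher and 18.7% lower at day 1, and 19.5% higher and 13.8% lower at day 3. Of 10 tested genes of resident macrophages, 2 were higher and 1 lower at day 1 and 4 were higher at day 3. The abundant ones were Cd81, a tetraspanin of many cell types, which was not called at either day, at -0.27 and -0.22 (edgeR adjusted p = 0.106 and 0.194), Apoe, a lipid carrier, at -0.15 and 0.73 (edgeR adjusted p = 0.699 and 0.0655), and Maf, a transcription factor, which fell by 1.57 at day 1 (edgeR adjusted p = 0.00123) and was at -0.62 at day 3 (edgeR adjusted p = 0.122). Cd163, the scavenger receptor for haemoglobin, is named after its values were seen. It was at 0 to 0.19 CPM at day 0 and 0.563 to 4.80 CPM at day 3, and rose by 4.28 (edgeR adjusted p = 0.00183).

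Of 11 tested genes of monocytes, 7 were higher and 1 lower at day 1, and 9 higher and 1 lower at day 3. Thbs1, a matrix protein, rose by 1.72 and 1.57 (edgeR adjusted p = 0.000271 and 0.000695), Plac8 rose by 1.49 and 2.16 (edgeR adjusted p = 0.000674 and 8.73e-05), and Fn1, which encodes fibronectin, was at 0.00 at day 1 (edgeR adjusted p = 0.991) and rose by 1.52 at day 3 (edgeR adjusted p = 0.0029). The gene that fell, Ace, at -1.70 and -2.26 (edgeR adjusted p = 0.00197 and 0.000467), is an enzyme of the tubular brush border and of vessels as well. Chil3, a chitinase-like lectin named after its values were seen, was at 0 to 0.0589 CPM at day 0, 0.286 to 2.57 CPM at day 1 and 2.59 to 31.8 CPM at day 3 (edgeR adjusted p = 0.00169 and 8.73e-05).

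Of 10 tested genes linked to signals from Tyrobp and Fcer1g, 3 were higher and 1 lower at day 1 (23.3% and 18.7% of all genes) and 6 were higher at day 3 (19.5%). Lyn, a kinase of the Src family, rose by 0.55 and 0.75 (edgeR adjusted p = 0.00744 and 0.00177), and Inpp5d, the phosphatase SHIP1, rose by 1.43 and 1.40 (edgeR adjusted p = 0.00204 and 0.00308). Plcg2, a phospholipase, was not called, at -0.29 and -0.12 (edgeR adjusted p = 0.351 and 0.718). The phosphatase Ptpn6 (SHP1) fell by 0.84 at day 1 (edgeR adjusted p = 0.00443) and was at -0.19 at day 3 (edgeR adjusted p = 0.478). Of 7 tested genes of lipid-associated macrophages, 5 were higher and 1, Lpl, lower at either day. Their sums of 9513 to 35306 CPM at day 1 and 6714 to 43235 CPM at day 3 were mostly reads of Spp1, which injured tubular cells also express.

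Neutrophils also express several of the members, among them Clec4d, Clec4e, Itgam, Itgb2, Fcgr3, Coro1a, Ncf1, Ncf4 and Plek, and neutrophil genes rose at both days. Summed over 10 neutrophil genes, expression was 1.77 to 2.30 CPM at day 0, 51.4 to 224 CPM at day 1 and 19.8 to 495 CPM at day 3. Of the 8 that passed the filter, 7 were higher at either day (23.3% and 19.5% of all genes), among them S100a8 and S100a9, which encode a calcium-binding pair and rose by 6.55 and 6.64 at day 1 (edgeR adjusted p = 0.000559 and 0.00022). The neutrophil sum was highest in replicate 5 of day 1 and of day 3, in which Cx3cr1 was at 0. What share of the members' rise came from neutrophils was not tested. Other blood cells gave low sums. They were 2.28 to 4.70 CPM over 8 T cell genes, 0.0735 to 1.44 CPM over 6 NK cell genes, 4.26 to 9.40 CPM over 8 dendritic cell genes and 0.0605 to 1.20 CPM over 5 mast cell genes, across all days. Lck led the T cell list and Zbtb46 the dendritic cell list (means of 1.82 and 3.90 CPM over all libraries), so these sums can hide other genes. At day 1 Lck was at 1.48 and Cd8a, on 2 to 9 reads per library, at -2.23 (edgeR adjusted p = 0.00412 and 0.00753). The 4 globin genes of red blood cells were listed at 0 in every library.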

How the data were processed

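Total RNA of mouse kidneys was sequenced with Illumina TruSeq libraries. Per the labels the authors trimmed reads with Trimmomatic and aligned them with STAR to mm10, whose versions are not given in the sources used here, and the deposited tables hold counts of uniquely mapped reads per gene, with no normalization. The column counted on the opposite strand was used, since it held 98.5% to 98.7% of the reads on genes. Rows that name no gene, 29.0% to 38.3% of each library's reads, were left out. Depth was 12485600 to 20477000 reads on genes, and intervals cover counting error only.

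Genes were filtered by edgeR's filterByExpr and TMM-scaled, and tested by the quasi-likelihood test of edgeR 4.0.16 (R 4.3.3) with Benjamini-Hochberg adjustment over 14300 genes. One model had a term for each day, and a second had a group for each day and number format. Log2 CPM used a prior count of 2. The 37 members and all lists were chosen with earlier results of these data known. Fold changes were given for the resident and recruited genes, for the 6 other members with the largest change in each comparison of days, and for every member not called, with others added where their values are described. Of other lists, 2 to 4 of the most abundant genes were named. Each result was recomputed with RLE or total-count scaling, with reads of both strands, without the filter, with DESeq2 1.42.0, with the 2 days compared alone, with replicates as blocks, with a term for the number format or a single format, and without each library. On simulated counts of 14168 genes for day 1 against day 0, edgeR recovered 171 of 200 genes changed by 2 on the log2 scale, with 5 false calls. DESeq2 recovered 180, with 36 false calls. The simulation changed far fewer genes than were called here and held no difference by number format. Its rates may therefore not hold for these data. Promoters came from RefSeq (GRCm38.p6). Exon lengths for RPKM came from the GENCODE annotation.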

Additional observations from a re-analysis of the deposited data

Results flagged for a closer look

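In a group of 4 or 5 libraries, the highest or lowest library was marked when its gap to the next exceeded Dixon's 95% limit. Of 114 groups, made of the 37 members and the recruited minus resident difference at each day, 14 were marked, all of them members, where chance gives about 5.7. Replicate 2 of day 0 was marked for 7 genes, with 12.4 CPM of Adgre1, 14.2 CPM of C1qb, 15.06 CPM of C1qc, 2.12 CPM of Fcgr4, 7.36 CPM of Coro1a, 1.71 CPM of Ms4a7 and 5.885 CPM of Ms4a6c, each the highest of its day. Replicate 4 of day 0 was the highest for Clec4e at 0.0605 CPM, which is 1 read, and for Gpnmb at 0.605 CPM. Replicate 2 of day 1 was the highest for Cx3cr1 at 2.86 CPM and Aif1 at 1.82 CPM. Replicate 5 of day 1 was the highest for Fcer1g at 7.16 CPM, Ncf4 at 5.07 CPM and Coro1a at 16.9 CPM.

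The difference between 3-digit and 1-digit libraries changed from day 1 to day 3 by a test of an interaction for 5 genes. The change was 2.41 for Ccr2, 0.98 for Csf1r, 1.46 for Fcgr2b, 1.55 for Laptm5 and -2.03 for Cd68 on the log2 scale (edgeR adjusted p = 0.0354, 0.0482, 0.0258, 0.0172 and 0.00814). In 14 fits that each left out 1 library, the call of Cd68 was kept throughout. That of Csf1r was kept without replicate 5 of day 1 or replicate 1 of day 3 and lost in the other 12 (edgeR adjusted p up to 0.151). That of Ccr2 was lost without replicate 1, 2, 3 or 5 of day 1 or 2, 3, 4 or 5 of day 3 (up to 0.121), that of Fcgr2b without replicate 1 or 3 of day 1 or 4 or 5 of day 3 (up to 0.108), and that of Laptm5 without replicate 1 or 2 of day 1 or 4 of day 3 (up to 0.0599).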

How the results depend on the processing

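The unstranded column, RLE size factors and no filter kept every count of members and of genes within 1.5 times. With total counts without TMM, 1 member was lower at day 3 against day 0, 9 were higher and 0 lower in 3-digit against 1-digit libraries at day 1, and 2 were higher in the format difference at day 3 against that at day 1. DESeq2 called 4 members lower at day 1 and, for day 3 in 3-digit libraries alone, 2 lower. Fitting the number format as a term, 9 members were lower at day 1 and 4 at day 3, and Cx3cr1 at day 3 was -2.55. With only 1-digit libraries, 8 members were lower at day 1, 6 at day 3 and 3 between day 1 and day 3, with 8119 and 5194 genes changed at day 3 against day 0 and against day 1. In this fit C1qb was -0.99, Cx3cr1 -3.32 and Ccr2 -0.96 at day 3 against day 0, and Cd68 was 0.92 against day 1, each opposite in sign to the pooled value. With only 3-digit libraries of days 1 and 3, 1 member was lower at day 3 against day 0 and 1 against day 1. With only the 2 days compared, 831 genes changed between day 1 and day 3. The day 0 difference of recruited and resident genes was -4.01 with a prior count of 0.5 and -3.95 without Ly6c2. The cause of these shifts was not tested.

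With each library left out in turn, genes changed ranged from 1269 (without replicate 4 of day 1) to 3350 between day 1 and day 3, from 1997 to 5602 between the formats at day 1, from 91 (without replicate 5 of day 3) to 4771 between the formats at day 3, from 1260 to 3148 for the format difference, and from 3420 to 6498 in the 3-digit libraries of day 1. Members higher ranged from 9 to 17, 1 to 8, 0 to 17, 0 to 6 and 6 to 15 in the same order. Members lower ranged from 2 to 5 at day 1, 1 to 2 at day 3, 0 to 1 between these days, 0 to 1 between the formats at either day, 2 to 6 in the 1-digit libraries of day 3, 1 to 3 in the 3-digit libraries of day 1 and 1 to 2 in those of day 3.

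Replicate numbers are shared between days without a stated meaning. The 13 pairs of libraries with the same number had correlations of their deviations from -0.17 to 0.26, of which 4 were over 0.1, and 4 of 14 libraries correlated best with their own number. With the replicate block, 5162, 4103 and 2044 genes changed at day 1, at day 3 and between them, and 11, 20 and 14 members were higher and 3, 2 and 0 lower. Genes at a few reads per library, such as Cx3cr1 in 1-digit libraries and Clec4d and Clec4e at day 0, are limited by depth.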
